A study of Mus musculus with 12 samples.

Results

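The 9 genes followed here mark homeostatic microglia, the resident macrophages of the brain parenchyma in their resting state, and were measured in RNA of isolated mouse cerebral vessels: *P2ry12*, *Tmem119*, *Cx3cr1*, *Sall1*, *Csf1r*, *Gpr34*, *Siglech*, *Trem2*, and *Aif1*. They were taken by symbol, matched to Ensembl identifiers of GRCm38, and make up 9 of the 54119 genes quantified. All 9 were present in the gene table and in the transcript files, and all 9 passed the filter on low counts, which left 19150 genes.

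Microglia survey brain tissue with fine processes, and in the healthy brain they carry a set of surface receptors and a transcriptional program that other macrophages lack or hold at low levels. *Csf1r* encodes the receptor whose ligands Csf1 and IL-34 keep microglia alive, *Cx3cr1* the receptor for fractalkine (Cx3cl1), and *P2ry12* the ADP receptor that steers processes towards injury. Some microglia touch capillaries, so vessels pulled from brain tissue can carry microglial RNA along with that of perivascular macrophages, which also express several of these genes. In activated microglia homeostatic genes are known to be expressed at lower levels.

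All mice were young adult C57BL6 wild type animals that received an intraperitoneal injection of PBS or of lipopolysaccharide (LPS, a component of the outer membrane of Gram-negative bacteria) at 10 mg/kg, and vessels were taken 15 min, 30 min, or 4 h after LPS. Each of the 4 groups (PBS, LPS 15 min, LPS 30 min, LPS 4 h) had 3 libraries, and each library pooled the vessels of 1 male and 1 female. After perfusion the meninges were removed, the forebrain was homogenized and spun in dextran, and vessels were collected on a mesh, with no sort for microglia. When the PBS mice were killed is not given in the sources used here.

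Depth was 18.3 to 25.9 M estimated fragments per library, and replicate pairs differed by more than sampling noise (chi-square per gene 2.57 to 7.73). Endothelial markers summed to 11570 to 11855 CPM (fragments scaled to a common library size with TMM factors) in PBS, against 123 to 128 CPM for the 9 microglial genes together. Although every pool was labelled as 1 male and 1 female, the X-inactivation transcript *Xist* was at 254 to 371 CPM in PBS, 31.5 to 108 after 15 min of LPS, 11.6 to 20.9 after 30 min, and 125 to 184 after 4 h. The Y-linked gene *Ddx3y* was at 40.2 to 54.4, 60.5 to 79.2, 103 to 106, and 141 to 151 CPM in the same order. Other Y-linked genes did not all climb in this way. *Uty* was at 21.4 to 25.5, 25.9 to 27.7, 33.8 to 36.7, and 36.3 to 47.5 CPM. *Eif2s3y* was at 33.6 to 45.9, 64.4 to 66.7, 53.8 to 60.2, and 59.4 to 67.5 CPM. *Kdm5d* was at 18.2 to 24.8, 29.8 to 36.8, 27.2 to 31.5, and 21.8 to 27.5 CPM. Hemoglobin RNA (*Hba-a1*) ran from 482 to 520 CPM in PBS up to 1372 to 1463 at LPS 4 h. The part of these shifts in the results that follow was not tested. In bulk RNA, fewer microglia and less RNA per microglial cell cannot be told apart.

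Promoter windows, 250 bases before to 50 after the start site, were available from RefSeq (GRCm38.p6) for 6 of the 9 genes, with 3 windows for *Sall1*; *Tmem119*, *Csf1r*, and *Gpr34* had no entry. The windows of 4 genes that were lower at LPS 4 h are shown 5′ to 3′ on the strand of the gene, so that the DNA upstream of the measured transcripts can be read. Capitals mark matches, on either strand, to the core of the site of PU.1, a myeloid lineage factor (GAGGAA). They also mark matches to loose patterns named after AP-1 (TGANTCA), MEF2 (CTANNNNTAG), and NF-kB (GGGANTTNCC), where N is any base. These patterns are wider than the binding sites of those factors, so a match need not be such a site.
P2ry12 (chr3:59262936-59263235, minus strand): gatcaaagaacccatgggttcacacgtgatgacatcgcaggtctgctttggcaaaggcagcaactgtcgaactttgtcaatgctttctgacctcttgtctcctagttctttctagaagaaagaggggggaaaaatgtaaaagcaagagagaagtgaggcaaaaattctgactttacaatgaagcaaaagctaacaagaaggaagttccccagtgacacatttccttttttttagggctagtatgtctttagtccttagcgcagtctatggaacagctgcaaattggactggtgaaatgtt
Cx3cr1 (chr9:120068247-120068546, minus strand): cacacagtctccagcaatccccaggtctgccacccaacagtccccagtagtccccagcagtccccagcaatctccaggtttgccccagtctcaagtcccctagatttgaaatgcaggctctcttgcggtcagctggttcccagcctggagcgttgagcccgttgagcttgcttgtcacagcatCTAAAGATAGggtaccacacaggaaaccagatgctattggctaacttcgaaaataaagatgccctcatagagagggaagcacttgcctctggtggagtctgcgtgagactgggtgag
Siglech (chr7:55767934-55768233, plus strand): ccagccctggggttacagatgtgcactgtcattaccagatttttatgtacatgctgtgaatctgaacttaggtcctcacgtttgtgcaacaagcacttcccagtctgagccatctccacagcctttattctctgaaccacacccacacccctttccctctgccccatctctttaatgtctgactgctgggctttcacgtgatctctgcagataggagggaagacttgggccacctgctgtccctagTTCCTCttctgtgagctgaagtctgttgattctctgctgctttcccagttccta
Trem2 (chr17:48346151-48346450, plus strand): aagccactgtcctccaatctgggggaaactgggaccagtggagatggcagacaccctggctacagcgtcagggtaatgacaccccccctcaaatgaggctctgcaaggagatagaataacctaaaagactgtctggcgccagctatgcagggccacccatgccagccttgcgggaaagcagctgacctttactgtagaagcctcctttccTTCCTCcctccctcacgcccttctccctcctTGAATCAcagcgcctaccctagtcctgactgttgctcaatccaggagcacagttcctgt

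The PU.1 core was found in the windows of *Siglech*, *Trem2*, and *Aif1*, against 28.3% of 32851 promoter windows of the same length. *Siglech* carried it across the start site, from base -4 to base 2, and *Trem2* from base -40 to base -35. *Trem2* also matched the loose AP-1 pattern, found in 7.81% of all windows, and *Cx3cr1* the loose MEF2 pattern, found in 3.69%. None of the 8 windows held the NF-kB letters (1.2% of all windows), and the *P2ry12* window held none of the 4 motifs. The motifs do not overlap each other in these windows, and a match is a description of the letters only.

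Most of the homeostatic microglial genes fell at LPS 4 h. Of the 9 genes 6 were lower than in PBS by more than 1.5-fold at an adjusted p below 0.05: *Gpr34*, *Cx3cr1*, *Siglech*, *P2ry12*, *Sall1*, and *Trem2*. *Tmem119*, *Csf1r*, and *Aif1* did not pass the test. Of all 19150 genes tested, 13.8% were called lower and 19.0% higher in this comparison. The median log2 fold change of the 9 genes was -1.47, against -0.01 over all genes tested, and their summed level was 123 to 128 CPM in PBS and 70.0 to 77.0 CPM at LPS 4 h. The test was edgeR's quasi-likelihood test against a 1.5-fold null, with Benjamini-Hochberg adjustment over all genes tested.

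At LPS 30 min only *Cx3cr1* among the 9 was called lower, where 0.799% of all genes were called lower and 3.78% higher. *P2ry12* was called as well at this time without the 1.5-fold null (adjusted p = 0.0138) or with scaling to reference genes (adjusted p = 0.00363). Of the 19150 genes, 7066 were called without the null (3295 of them lower) and 4503 with reference genes (4169 lower). At LPS 15 min 0 of the 9 were called by the same test, with 0.872% of all genes called lower and 3.31% higher. Without the 1.5-fold null, edgeR called *Cx3cr1* at this time (adjusted p = 0.000299), among 7393 of the 19150 genes (3488 of them lower). At an unadjusted p under 0.05 the threshold test gave 0 of the 9. DESeq2 and limma with the same fold threshold also called 0. The summed level of the 9 genes was 112 to 115 CPM at LPS 15 min and 114 to 118 CPM at LPS 30 min.

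**Figure D1:**
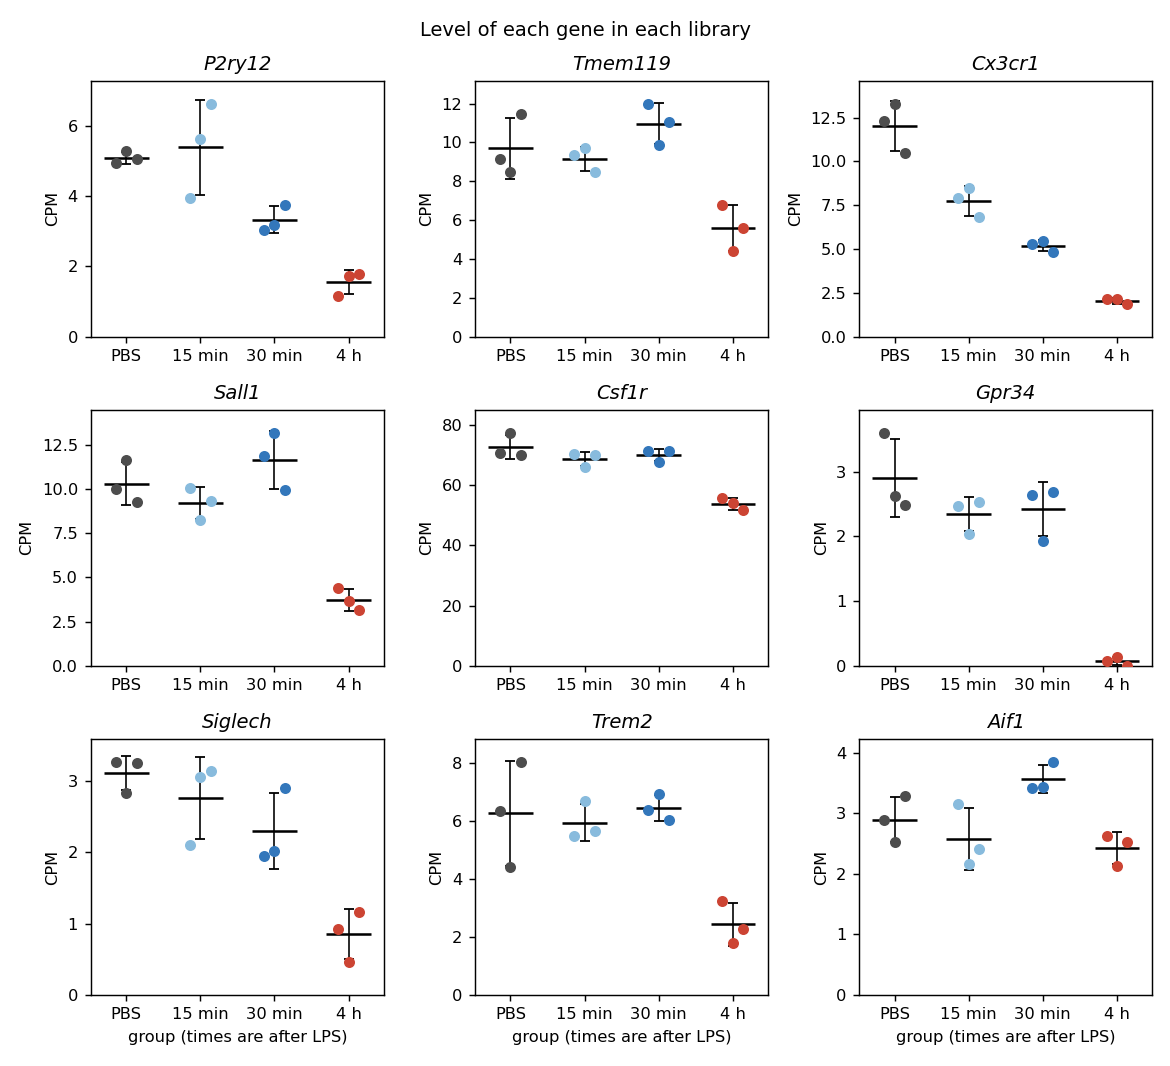
Level of each of the 9 genes in CPM (vertical axis, from 0, with its own scale per panel) in the 3 libraries of each group (points), with the group mean (bar) and SD (error bar). At LPS 4 h the points of *Aif1* overlap those of PBS. The points of the other genes lie below all PBS points, also those of *Tmem119* and *Csf1r*, which were not called. The share of all genes without overlap is not given here.

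*Cx3cr1* (ENSMUSG00000052336, chr9:119901616-120069879, minus strand) had lower values at each later time. Its level was 12.3, 13.3, and 10.5 CPM in the PBS libraries, 7.90, 8.5, and 6.83 after 15 min of LPS, 5.29, 5.47, and 4.83 after 30 min, and 2.16, 2.13, and 1.84 after 4 h. No 2 groups overlapped, and each later group lay below the earlier ones. The log2 fold change against PBS was -0.64 (SE 0.126, adjusted p = 1) after 15 min, -1.21 (SE 0.132, adjusted p = 0.000318) after 30 min, and -2.55 (SE 0.161, adjusted p = 5.34e-11) after 4 h. LPS 4 h was also lower than LPS 30 min, by -1.34 (SE 0.173, adjusted p = 0.000127), whereas LPS 30 min against LPS 15 min (-0.57, SE 0.135) did not pass the threshold (adjusted p = 1). At LPS 4 h the mean level was 17.0% of PBS, on 87 fragments over the 3 libraries against 996 in PBS. The span of *Cx3cr1* overlaps 9 other annotated genes, and the antisense *Gm33858* alone shares exonic bases with it (78 of 4505). *Gm33858* had 33 fragments over the PBS group, 6 and 9 after 15 and 30 min of LPS, and 7 after 4 h, and was not tested. The kit does not mark strand, so reads of the shared bases cannot be told apart.

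The ligand moved the other way. *Cx3cl1*, the membrane-bound chemokine that binds Cx3cr1, was at 180 to 184 CPM in PBS and 439 to 467 CPM at LPS 4 h (log2 fold change 1.33, SE 0.0280, adjusted p = 5.27e-18). Its sheddases diverged. *Adam17* rose (0.92, SE 0.0425, adjusted p = 4.00e-08) and *Adam10* fell (-0.77, SE 0.0308, adjusted p = 2.12e-06) at LPS 4 h. Under scaling to library size or to reference genes *Cx3cl1* (0.62 and 0.40) and *Adam17* (0.22 and -0.01) were not called.

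*P2ry12* (ENSMUSG00000036353, chr3:59216272-59262871, minus strand) was at 4.94, 5.26, and 5.04 CPM in PBS and at 3.93, 5.61, and 6.61 CPM at LPS 15 min, which overlap. At LPS 30 min it was at 3.03, 3.18, and 3.75 CPM, below every PBS library, and at LPS 4 h at 1.16, 1.73, and 1.78 CPM. The log2 fold change at LPS 30 min was -0.61 (SE 0.190, adjusted p = 1), and that at LPS 4 h was -1.70 (SE 0.225, adjusted p = 3.04e-05). Against LPS 30 min the later time was lower by -1.08 (SE 0.235, adjusted p = 0.0231), a call lost without LPS 30 min replicate 3 (adjusted p = 0.0688) or without LPS 4 h replicate 1 (adjusted p = 0.105). It was also lost in DESeq2 (adjusted p = 0.265) and in limma with 10 added to each value of the gene table (adjusted p = 0.0623). *P2ry12* shares 9 of its 2546 exonic bases with *Med12l* on the opposite strand, which was called higher at LPS 15 min (0.89, SE 0.114, adjusted p = 0.0357) and not at LPS 4 h (-0.22, SE 0.129). The library kit does not mark strand.

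*Gpr34* (ENSMUSG00000040229, chrX:13632089-13640858, plus strand), a receptor for lysophosphatidylserine, fell to a few fragments at LPS 4 h. The PBS libraries held 96, 78, and 65 fragments (3.60, 2.63, and 2.48 CPM), the LPS 15 min libraries 73, 48, and 67, the LPS 30 min libraries 61, 45, and 60, and the LPS 4 h libraries 1, 2, and 0. The first 3 groups overlapped and the last lay far below them. Over the group, 3 fragments at LPS 4 h against 239 in PBS gave 2.43% of the PBS level after scaling (95% interval 0.498% to 7.19%, exact Clopper-Pearson, counting error only), which is 41.1-fold lower. The threshold test gave adjusted p = 5.90e-09 against PBS and 2.81e-08 against LPS 30 min. *Gpr34* is X-linked and lies within *Cask* on the other strand, with no exonic base shared; *Cask* rose at LPS 4 h (0.96, SE 0.0655, adjusted p = 3.61e-06). In the LPS 30 min libraries, which had the lowest *Xist*, *Gpr34* was at 1.94 to 2.68 CPM. The part of pool sex in the *Gpr34* values was not tested.

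*Siglech* (ENSMUSG00000051504, chr7:55768178-55778925, plus strand) encodes a sialic acid-binding lectin that signals through DAP12 and marks microglia and plasmacytoid dendritic cells. It was at 3.26, 2.83, and 3.24 CPM in PBS and at 0.925, 0.466, and 1.16 CPM at LPS 4 h, with no overlap, on 7 to 17 fragments per library at the later time. The log2 fold change was -1.87 (SE 0.300, adjusted p = 0.000161). LPS 15 min (2.10 to 3.13 CPM) and LPS 30 min (1.95 to 2.91 CPM) both overlapped PBS. The fall from LPS 30 min to LPS 4 h was -1.43 (SE 0.311, adjusted p = 0.00652), and it missed the threshold without LPS 4 h replicate 2 (adjusted p = 0.0564) and in DESeq2 (adjusted p = 0.0702).

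*Trem2* (ENSMUSG00000023992, chr17:48346401-48354147, plus strand), a lipid and apolipoprotein receptor that also signals through DAP12, was the most variable of the set in PBS, at 6.33, 4.42, and 8.02 CPM. At LPS 15 min it was at 5.49 to 6.67 CPM and at LPS 30 min at 6.03 to 6.93 CPM, both inside the PBS range. The LPS 4 h libraries were at 3.24, 1.80, and 2.25 CPM, below all others. The log2 fold change was -1.37 (SE 0.222, adjusted p = 0.000812) against PBS and -1.42 (SE 0.224, adjusted p = 0.000606) against LPS 30 min. In limma on the authors' gene table the difference from PBS missed the threshold (adjusted p = 0.0921 with 1 added to each value and 0.155 with 10 added). The adaptor itself, *Tyrobp* (DAP12), was at 8.89 to 10.7 CPM in PBS and 15.0 to 18.7 CPM at LPS 4 h (0.69, SE 0.110, adjusted p = 0.164), and the kinase *Syk* downstream of it rose (1.85, SE 0.137, adjusted p = 3.08e-09).

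*Sall1* (ENSMUSG00000031665, chr8:89027235-89044162, minus strand), a zinc-finger transcription factor that maintains microglial identity, was at 10.0, 11.6, and 9.28 CPM in PBS. It stayed within or near that range at LPS 15 min (8.28 to 10.1 CPM) and LPS 30 min (9.95 to 13.2 CPM). At LPS 4 h it was at 4.39, 3.66, and 3.14 CPM, with no overlap with any earlier group. The log2 fold change was -1.47 (SE 0.158, adjusted p = 5.93e-06) against PBS and -1.65 (SE 0.158, adjusted p = 5.62e-07) against LPS 30 min. *Sall1* has 1 annotated transcript, and its 158 fragments at LPS 4 h compared with 855 in PBS.

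*Tmem119* (ENSMUSG00000054675, chr5:113793729-113800516, minus strand), a transmembrane protein used to tell microglia from other brain macrophages, missed the threshold against PBS. Its level was 9.14, 8.47, and 11.5 CPM in PBS, 9.33, 9.69, and 8.45 after 15 min of LPS, 12, 9.86, and 11 after 30 min, and 6.78, 4.4, and 5.60 after 4 h. The LPS 4 h libraries lay below every other library. The log2 fold change against PBS was -0.80 (SE 0.156, adjusted p = 0.0837), and it passed the test without PBS replicate 2 (-0.89, adjusted p = 0.0358) or without LPS 4 h replicate 1 (-0.95, adjusted p = 0.0193). Against LPS 30 min the level was lower by -0.98 (SE 0.156, adjusted p = 0.00976), a call lost in 5 of the 23 alternatives: without LPS 4 h replicate 2 (adjusted p = 0.0815), with the average transcript length offset (0.0517), in DESeq2 (0.0915), and in limma on the gene table (0.167 with 1 added and 0.226 with 10 added).

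*Csf1r* (ENSMUSG00000024621, chr18:61100598-61132149, plus strand) was by far the most abundant of the 9 and, with TMM factors, changed by less than 1.5-fold. Under scaling to library size or to reference genes it was called lower at LPS 4 h (-1.14 and -1.36). It was at 70.8, 77.2, and 70.0 CPM in PBS, 66.1 to 70.3 after 15 min of LPS, 67.8 to 71.4 after 30 min, and 55.6, 54.0, and 51.7 after 4 h. The last group lay below all the others, at -0.44 on the log2 scale (SE 0.0499, adjusted p = 1 against the 1.5-fold null). Tested against no change, the same difference had adjusted p = 5.54e-08, where 13124 of the 19150 genes were called (6444 of them lower). *Csf1r* shares 873 of its 5774 exonic bases with *Hmgxb3* on the opposite strand, which was at 0.23 (SE 0.0813, not called) at LPS 4 h.

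Its ligands differed from each other. *Csf1* rose from 79.1 to 82.4 CPM in PBS to 593 to 635 CPM at LPS 30 min (log2 fold change 2.94, SE 0.0287, adjusted p = 1.70e-26) and 937 to 944 CPM at LPS 4 h (3.55, SE 0.0292, adjusted p = 8.40e-29). *Il34*, the second ligand, was at 57.6 to 60.3 CPM in PBS and 60.5 to 63.9 CPM at LPS 4 h (0.08, SE 0.0458, adjusted p = 1). *Csf1r* was lowest in the group in which *Csf1* was highest, and at LPS 30 min *Csf1r* was at -0.05 against PBS (SE 0.0461, not called). A link between these genes was not tested.

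*Aif1* (ENSMUSG00000024397, chr17:35170991-35176068, minus strand), the gene of the actin-binding protein Iba1 that stains microglia and other macrophages, was the only 1 of the 9 whose LPS 4 h libraries overlapped PBS. The share of all genes without such overlap is not given here. It was at 2.88, 2.53, and 3.28 CPM in PBS and 2.62, 2.13, and 2.53 CPM at LPS 4 h (log2 fold change -0.26, SE 0.212, adjusted p = 1). At LPS 30 min it was at 3.42, 3.44, and 3.84 CPM, above every PBS library (0.30, SE 0.193, adjusted p = 1). From LPS 30 min to LPS 4 h the difference was -0.56 (SE 0.211, adjusted p = 0.639).

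**Figure D2:**
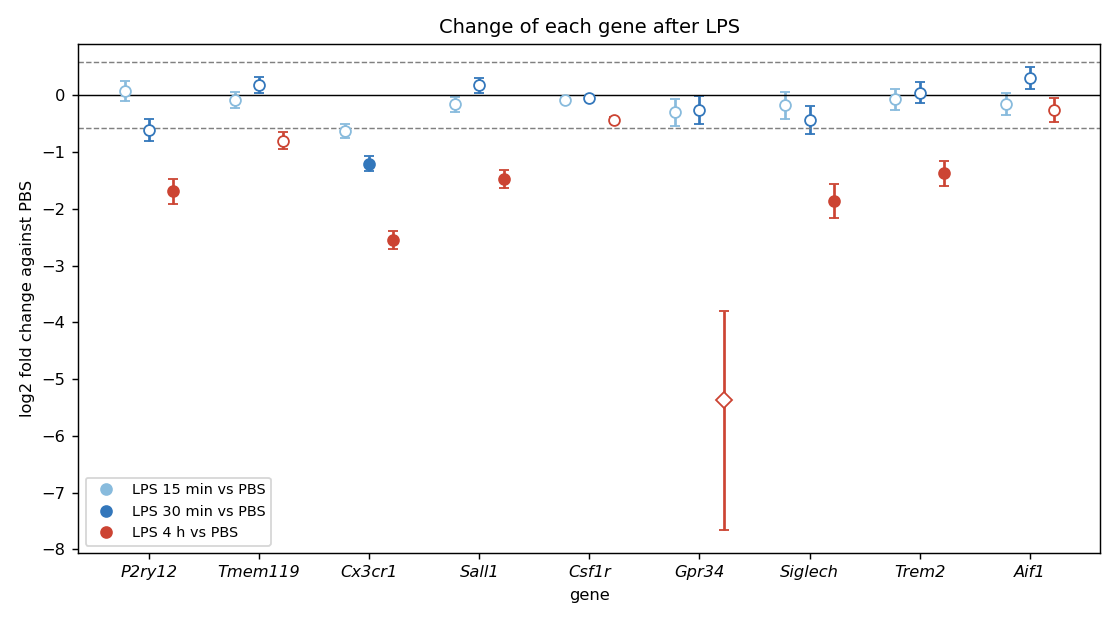
Log2 fold change against PBS (vertical axis) of the 9 genes (horizontal axis) at the 3 LPS times; circles are fitted values with SE, filled where called, and the diamond is the ratio of *Gpr34* fragments at LPS 4 h with its 95% counting interval. Dashed lines mark the 1.5-fold limits, and at LPS 4 h 6 genes were called, *Gpr34* (the diamond) among them.

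The LPS times were also compared with each other. Between LPS 30 min and LPS 4 h 7 of the 9 genes were called lower, where 11.8% of all genes were: the 6 genes called against PBS, and *Tmem119*. DESeq2 with the same fold threshold called 4, without *P2ry12*, *Tmem119*, and *Siglech*. The median log2 fold change was -1.34 for the 9 genes and -0.04 over all genes. Between LPS 15 min and LPS 30 min 0 of the 9 were called lower or higher by edgeR, where 1.96% of all genes were called lower. At an unadjusted p under 0.05 the same test gave 0 of the 9, as did DESeq2 and limma with the same fold threshold. Without the 1.5-fold null edgeR called *P2ry12* (adjusted p = 0.00593) and *Cx3cr1* (adjusted p = 0.00166), among 7153 of the 19150 genes (3479 of them lower). These comparisons and those with PBS share libraries.

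**Figure D3:**
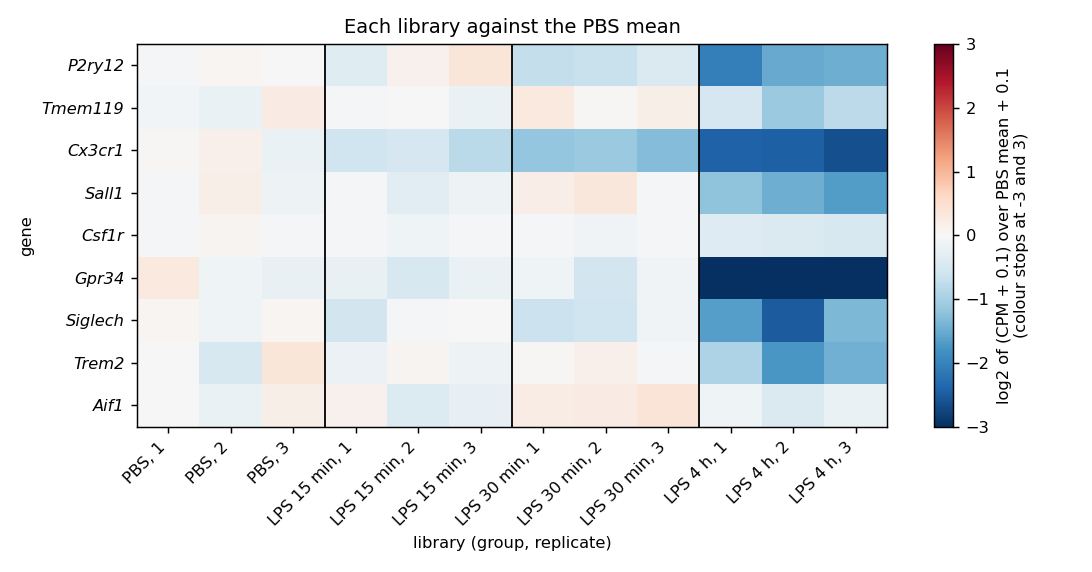
Log2 ratio of each library to the PBS mean for the 9 genes (rows), on CPM plus 0.1, with colour limits at -3 and 3; columns are the 12 libraries by group and replicate. The *Cx3cr1* row darkens from LPS 15 min on, most other rows at LPS 4 h, and the rows of *Csf1r* and *Aif1* stay pale.

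On the scale of TPM, which takes transcript length into account, the order of levels in PBS was *Csf1r* (28.7 ± 1.63, SD, n = 3), *Trem2* (9.36 ± 3.12), *Aif1* (8.95 ± 2.18), *Tmem119* (7.55 ± 1.18), *Cx3cr1* (5.33 ± 0.695), *P2ry12* (5.31 ± 0.718), *Siglech* (3.60 ± 0.370), *Sall1* (3.12 ± 0.392), and *Gpr34* (2.57 ± 0.591). The library ranges of *Trem2*, *Aif1*, and *Tmem119* overlapped from neighbour to neighbour, as did those of *Cx3cr1* and *P2ry12*, and those of *Siglech*, *Sall1*, and *Gpr34*. At LPS 4 h *Csf1r* (13.5 ± 4.85) still led, followed by *Aif1* (3.54 ± 0.401), *Tmem119* (2.58 ± 0.929), and *Trem2* (2.33 ± 0.701). The remaining genes were all under 1 TPM: *P2ry12* at 0.631 ± 0.142, *Sall1* at 0.600 ± 0.110, *Cx3cr1* at 0.473 ± 0.0429, *Siglech* at 0.472 ± 0.239, and *Gpr34* at 0.0348 ± 0.0328. At that time *Cx3cr1* overlapped its neighbours *Sall1* and *Siglech*. TPM is a share of all RNA in a library, without the TMM factor, so TPM ratios between groups differ from the CPM folds.

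The transcript estimates add to 3 of these genes. *Csf1r* fragments were split between Csf1r-201 and Csf1r-202, which held 64.1% and 35.9% of the fragments in PBS and 46.0% and 52.8% at LPS 4 h; Csf1r-201 held 42.4% and 36.5% after 15 and 30 min of LPS. The library LPS 4 h replicate 2 was given 8.44 TPM of the 416-base Csf1r-205, and its gene total was 19.1 TPM against 11.4 and 10.1 in the other 2. The normalized counts in the authors' table, which are divided by average transcript length, were 1150, 1976, and 1042 for *Csf1r* in these 3 libraries, so that spread was not in the fragment counts (721, 810, and 756). For *Trem2* the retained-intron transcript Trem2-203 held 23.6% of the fragments in PBS, 11.4% and 10.0% after 15 and 30 min of LPS, and 4.48% after 4 h, while Trem2-201 held 67.2%, 76.2%, 86.3%, and 74.9% in the same order. Siglech-204, annotated as subject to nonsense-mediated decay, was assigned 71.4% of the *Siglech* fragments in PBS, 64.7% and 45.5% after 15 and 30 min of LPS, and 78.2% after 4 h. At LPS 4 h these shares rest on few fragments, 28.1 for Siglech-204 and 4.57 for Trem2-203 over the group. Replicates also varied, with 26.3, 6.2, and 38.9 fragments of Siglech-204 in the LPS 30 min libraries. No test was run on transcripts.

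Other genes enriched in microglia did not move as 1 group. Of 12 such genes 2 were called lower and 4 higher at LPS 4 h, with a median log2 fold change of -0.20. The shares over all genes were 13.8% lower and 19.0% higher. *Olfml3*, a secreted matrix protein, fell (-1.36, SE 0.0727, adjusted p = 2.62e-10), from 35.2 to 37.4 CPM in PBS to 13.2 to 15.4 CPM. The fructose transporter *Slc2a5* fell from 54 fragments over the PBS group to 4 at LPS 4 h, which is 14.3% of PBS (95% counting interval 3.77% to 38.9%; adjusted p = 0.00578). The 4 that rose were the adenosine receptor *Adora3* (3.35, SE 0.501, adjusted p = 1.80e-05), the inhibitory receptor *Lag3* (1.94, SE 0.187, adjusted p = 1.78e-07), the sialic acid-binding receptor *Cd33* (1.52, SE 0.144, adjusted p = 6.84e-07), and the selectin ligand *Selplg* (0.95, SE 0.159, adjusted p = 0.0128). At LPS 30 min *Lag3* alone among the 12 was called, higher, as were 3.78% of all genes.

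Of 11 regulators of microglial identity 4 were called higher at LPS 4 h, where 19.0% of all genes were, and 7 did not pass the test. The lineage factors *Runx1* (3.42, SE 0.140, adjusted p = 3.72e-15), *Irf8* (2.87, SE 0.106, adjusted p = 8.76e-16), and *Spi1*, which encodes PU.1 (2.73, SE 0.132, adjusted p = 2.14e-13), rose, as did the cytokine gene *Tgfb1* (0.83, SE 0.0496, adjusted p = 2.79e-05). *Spi1* was at 3.97 to 5.20 CPM in PBS and 30.0 to 32.1 CPM at LPS 4 h, in the same libraries in which *Sall1* was at its lowest. Of the 9 ligands and partners of the homeostatic genes that were tested, of 10 listed, 4 rose (*Csf1*, *Cx3cl1*, *Syk*, *Adam17*) and 1 fell (*Adam10*) at LPS 4 h. At that time 19.0% of all genes were called higher and 13.8% lower.

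**Figure D4:**
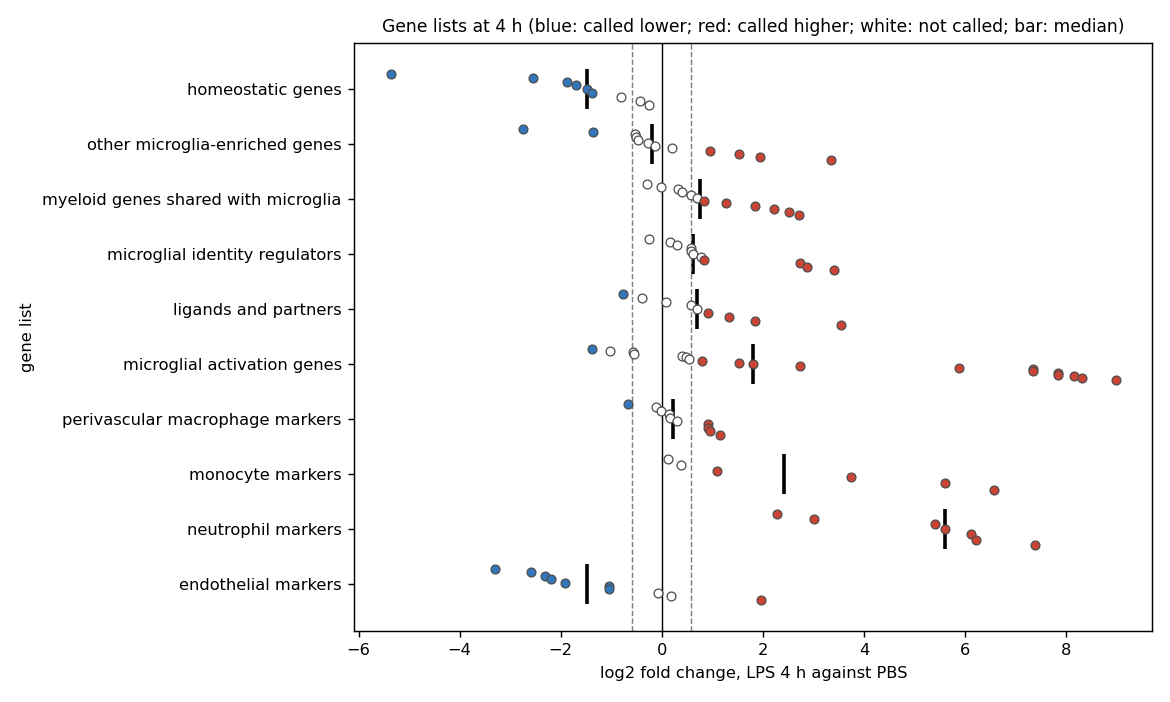
Log2 fold change at LPS 4 h against PBS (horizontal axis) for the tested genes of 10 lists (rows), with the list median as a bar; blue was called lower, red higher, and white not called, and dashed lines mark the 1.5-fold limits. The homeostatic genes lie between -5.36 (*Gpr34*, by its fragment ratio) and -0.26, with a median of -1.47. The median is -1.49 for the endothelial markers and -0.20 for the other microglia-enriched genes, and it lies above 0 for all remaining lists.

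Genes that microglia share with other myeloid cells were called higher in 6 of 12 cases at LPS 4 h, the other 6 not passing the test, with a median of 0.77. *Fcer1g*, a signalling chain of Fc receptors, rose by 2.71 (SE 0.0790, adjusted p = 1.19e-17) and the integrin *Itgam* (CD11b) by 2.51 (SE 0.141, adjusted p = 5.34e-12). The shares of all genes called higher were 3.31% after 15 min of LPS, 3.78% after 30 min, and 19.0% after 4 h. Among 19 tested genes of microglial activation, which other cells also express, 2 were called higher after 15 min of LPS, 8 after 30 min, and 12 after 4 h, when 1 was called lower. The largest rises there were those of the chemokine *Ccl4* (8.99, SE 0.174, adjusted p = 4.38e-22) and the LPS co-receptor *Cd14* (8.31, SE 0.0603, adjusted p = 3.63e-30).

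Markers of blood leukocytes moved at the same time, LPS 4 h, when 19.0% of all genes were called higher. All 7 tested neutrophil markers of 8 listed were called higher at LPS 4 h (*Ngp* 7.39, SE 0.398, adjusted p = 2.38e-13; *S100a9* 6.22, SE 0.109, adjusted p = 6.65e-23), and the list summed to 7.02 to 8.74 CPM in PBS, 5.19 to 7.32 after 15 min of LPS, 8.52 to 10.1 after 30 min, and 222 to 228 after 4 h. *Ly6g*, the defining neutrophil marker, had 0 fragments in PBS and LPS 15 min, 2 at LPS 30 min, and 13 over the LPS 4 h group, and was not tested. Monocyte markers rose in 4 of 6 cases (*Chil3* 6.58, SE 0.253, adjusted p = 3.76e-16; *Plac8* 5.61, SE 0.189, adjusted p = 3.23e-17) and summed to 44.7 to 52.3 CPM in PBS and 160 to 163 CPM at LPS 4 h. Monocytes also express *Cx3cr1*, *Csf1r*, and *Aif1*. The part of these cells in the values of the shared myeloid genes, the regulators, and the 9 genes was not tested.

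Perivascular macrophages share *Csf1r*, *Cx3cr1*, and *Aif1* with microglia. Of their 10 markers 4 rose and 1 fell at LPS 4 h, when 19.0% of all genes were called higher and 13.8% lower. Those that rose included *Siglec1* (1.16, SE 0.204, adjusted p = 0.00391) and *Lyve1* (0.95, SE 0.117, adjusted p = 0.00181). The summed level was 371 to 377 CPM in PBS, 330 to 334 after 15 min of LPS, 369 to 370 after 30 min, and 359 to 368 after 4 h. The other 2 that rose were *Mrc1* (0.91, SE 0.0452, adjusted p = 1.95e-07) and *Pf4* (0.92, SE 0.0984, adjusted p = 0.000944). All 4 lost the call under scaling to library size (0.20 to 0.46) and under scaling to reference genes (-0.02 to 0.24). The marker that fell was *Stab1* (-0.66, SE 0.0293, adjusted p = 0.00837), and it was called lower under both of these scalings as well (-1.36 and -1.58). None of these markers was at 0. Lymphocyte markers had 2 of 8 called lower at LPS 4 h (*Cd3e*, 50 fragments in PBS and 4 at LPS 4 h, and *Cd79a*, -1.12, SE 0.239, adjusted p = 0.0157).

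Markers of vessel cells and of brain cells were mixed at LPS 4 h, when 13.8% of all genes were called lower and 19.0% higher. Endothelial markers had 7 of 10 called lower, led by *Slco1a4* (-3.30, SE 0.0236, adjusted p = 9.10e-30) and *Tek* (-2.58, SE 0.0294, adjusted p = 1.42e-25), and 1 higher, with a median of -1.49 that was close to that of the 9 microglial genes. Mural cell markers had 1 of 8 lower (*Anpep* -1.76, SE 0.0755, adjusted p = 2.92e-13), and astrocyte markers had 3 of 7 higher (*Gja1* 2.81, SE 0.0387, adjusted p = 3.34e-24; *Aqp4* 2.49, SE 0.649, adjusted p = 0.00707). Of 7 neuron markers 2 were lower, *Tubb3* (-1.15, SE 0.0730, adjusted p = 6.19e-08) and *Gad2* (-0.83, SE 0.139, adjusted p = 0.0394), as were 2 of 6 markers of the oligodendrocyte lineage, *Mog* (-1.22, SE 0.259, adjusted p = 0.0102) and *Mag* (-1.07, SE 0.111, adjusted p = 0.00011). The more abundant *Mbp* (0.53, SE 0.0317, adjusted p = 1) and *Mobp* (0.65, SE 0.0488, adjusted p = 0.077) of the same list lay above PBS without passing the test, and the list summed to 428 to 446 CPM in PBS and 503 to 516 CPM at LPS 4 h.

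The profile of the 9 genes over the 12 libraries (the mean of standardized log2 of CPM plus 0.1) was followed most closely, by Pearson's r, by *Naxe* (0.997), *Plcb3* (0.996), *Cdk2* (0.995), *Nr2f2* (0.994), and *Lasp1* (0.994). The 9 genes themselves ran from 0.565 (*Aif1*) to 0.970 (*Gpr34*). Each of them is part of the mean it was correlated with, which raises these values by construction. Of 16307 genes with a mean of at least 1 CPM, 6.79% had an r of at least 0.95. The 12 points fall into 4 groups of 3, so these values describe a shared fall at LPS 4 h more than a likeness within groups.

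Scaling moves every gene of a comparison by about the same amount. With library size alone, the median log2 fold change of all genes shifted by -0.16 at LPS 30 min and -0.70 at LPS 4 h, and with scaling to *Actb*, *Gapdh*, and *Rplp0* by -0.57 and -0.92. These 3 reference genes were themselves called higher at LPS 4 h with TMM (*Actb* 1.43, SE 0.0198, adjusted p = 4.28e-22; *Gapdh* 0.66, SE 0.0216, adjusted p = 0.000747; *Rplp0* 0.69, SE 0.0258, adjusted p = 0.000235). The 6 genes called lower at LPS 4 h were lower under all 4 scalings. *Tmem119*, *Csf1r*, and *Aif1* were called lower at LPS 4 h only under the last 2 (-1.50, -1.14, and -0.96 by library size; -1.72, -1.36, and -1.18 by the reference genes). Among the genes named as higher at LPS 4 h, *Tgfb1*, *Selplg*, *Siglec1*, and *Lyve1* were not called either under these 2 scalings, with *Tgfb1* at 0.12 and -0.10, *Selplg* at 0.25 and 0.03, *Siglec1* at 0.46 and 0.24, and *Lyve1* at 0.25 and 0.03. The same held for *Cx3cl1*, *Adam17*, *Mrc1*, *Pf4*, and *Ly6c2*. *Cd33* (0.59) and *Aqp4* (1.57) lost their calls under the reference genes alone.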

How the data were processed

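RNA of cerebral vessels was sequenced in 12 libraries (SMART-Seq v4 with Nextera XT, paired-end NovaSeq reads). Per the labels and methods, the authors quantified transcripts with Salmon 1.2.1 on GRCm38.p6. Their files hold the deposited estimated counts (fragments per transcript, not normalized) and TPM values, which the authors scaled by transcript length. The gene table of the authors holds a normalized signal, summed with tximport and divided by DESeq2 size factors and average transcript length factors.

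Of 140948 transcripts 139852 joined the GENCODE M21 annotation by identifier, and the others held 0.482% to 0.850% of the fragments. Counts were summed per gene and rounded. Genes past filterByExpr (minimum count 10, total 15, share 0.7) were tested in edgeR 4.0.16 (R 4.3.3) with TMM factors and a quasi-likelihood fit of all 12 libraries, by glmTreat against 1.5-fold, with Benjamini-Hochberg adjustment over all 19150 genes. SEs were derived from the log2 fold change and the quasi-likelihood F (change divided by the root of F) and may be too small at low counts. CPM used TMM factors. The script was tested on simulated data. Depth was 18.3 to 25.9 M fragments, and the counts of *Siglech*, *Gpr34*, and *P2ry12* at LPS 4 h limit their precision. Nothing in the sources states separate litters or days, so p-values measure the spread between these pooled libraries.

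The 9 genes, the lists, and the tests were chosen with earlier results of these data known. All 9 genes were described. From the other lists the 2 called genes with the largest change at LPS 4 h were named (6 for genes enriched in microglia, regulators, and ligands or partners), along with genes that overlap a member, genes of like pattern, and markers of pool sex and blood. The last were chosen after their values were seen, as were *Il34*, *Tyrobp*, *Ly6g*, *Gapdh*, *Mrc1*, *Pf4*, *Stab1*, *Ccr2*, *S100a4*, *Ly6c2*, *Mbp*, and *Mobp*. Alternatives were DESeq2 1.42.0, RLE factors, library size alone, scaling to 3 reference genes, no filter, no fold threshold, an average transcript length offset, only the groups compared, a replicate block, limma 3.58.1 on the log2 of the gene table plus 1 or 10, and leaving out each library. Tables and plots used Python 3.11.15, pandas 2.3.3, numpy 2.4.6, and matplotlib 3.10.9.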

Additional observations from a re-analysis of the deposited data

Results flagged for a closer look

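The change after LPS differed between time points, by the direct edgeR test of LPS 4 h against LPS 30 min, for 7 of the 9 genes: *P2ry12* (log2 fold change -1.08), *Tmem119* (-0.977), *Cx3cr1* (-1.34), *Sall1* (-1.65), *Siglech* (-1.43), *Trem2* (-1.42), and *Gpr34* (-5.10 as the ratio of 3 to 166 fragments, 95% counting interval -7.39 to -3.53). In each of these genes all 3 LPS 4 h libraries lay below all 3 LPS 30 min libraries. The same held for *Csf1r* and *Aif1*, which were not called, and the share over all genes is not given here. With 3 libraries a group, no library could be tested as an outlier.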

How the results depend on the processing

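The count of the 9 genes called at LPS 4 h against PBS was 6 and ranged from 5 to 9 over 23 alternatives (6 to 7 when 1 library was left out). Without the fold threshold 1 gene was called at LPS 15 min, 2 at LPS 30 min, and 2 between LPS 30 min and LPS 15 min, and with scaling to reference genes 2 at LPS 30 min and 2 between LPS 30 min and LPS 15 min. Over all 19150 genes these counts were 7393, 7066, and 7153 without the threshold, and 4503 and 2770 with reference genes. DESeq2 called 4 instead of 7 between LPS 4 h and LPS 30 min. Leaving out 1 library gave 0 at LPS 15 min, 1 at LPS 30 min, 0 between these times, and 5 to 7 between LPS 4 h and LPS 30 min. The cause was not tested. No gene of the 9 was called higher under any alternative. Of 1035 single-gene values under an alternative, 970 kept direction and call, 22 gained a call, 13 lost one, and 30 changed sign, none of these called in either fit. Counts in the other lists stayed within 1.5 times in 840 of 966 cases.

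The sign changed at LPS 15 min for *P2ry12* with reference genes (-0.0191) or without LPS 15 min replicate 3 (-0.10), for *Tmem119* without 1 library (-0.17 to 0.0571, the last without PBS replicate 3), and for *Trem2* with the length offset (0.0878), without 1 library (-0.274 to 0.146), and with limma (0.12 and 0.11). At LPS 30 min it changed with reference genes for *Tmem119* (-0.39), *Sall1* (-0.39), *Trem2* (-0.52), and *Aif1* (-0.26), and for *Trem2* with library size (-0.12) or without PBS replicate 2 (-0.15) or LPS 30 min replicate 2 (-0.01). Between LPS 30 min and LPS 15 min it changed with reference genes for *Tmem119* (-0.21), *Sall1* (-0.13), *Csf1r* (-0.45), *Gpr34* (-0.43), *Trem2* (-0.35), and *Aif1* (-0.0104). There it also changed with library size for *Csf1r* (-0.11), *Gpr34* (-0.10), and *Trem2* (-0.0198), without 1 library for *Csf1r* (-0.00206 to 0.0496) and *Gpr34* (-0.0489 to 0.178), and for *Siglech* with the length offset (0.29) or limma (0.27 and 0.23).

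Same-numbered libraries of different groups correlated at -0.0672 to 0.0516 in their deviations from group means, so the numbers were not taken as pairs. With the replicate number as a block 6 genes were called at LPS 4 h, 1 at LPS 30 min, 0 at LPS 15 min, 0 between LPS 30 min and LPS 15 min, and 7 between LPS 4 h and LPS 30 min, and the block changed no call of the 9 genes.

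Library size alone called 8555 of all genes lower and 1907 higher at LPS 4 h, against 2637 and 3636 with TMM, and scaling to reference genes 10588 and 1627. With 3 libraries against 3 an exact permutation test of 1 gene cannot go below p = 0.1. At LPS 4 h *Gpr34* rests on 3 fragments and *Siglech* on 36.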
